A study of Mus musculus with 12 samples.

Results

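The transcripts of 10 lipid droplet proteins were examined in the livers of male mice whose mothers had or had not received vitamin D. They were Cidea, Cideb, Cidec, Plin2, Plin3, Plin4, Plin5, G0s2, Pnpla2 and Pnpla3, chosen by name from 52636 gene rows. Livers were taken at 16 weeks of age from 6 VDD-F1 and 6 VDS-F1 males of the C57Bl/6J strain, with 1 RNA-seq library per mouse. VDD-F1 mice were born to dams on a vitamin D deficient diet before mating and during pregnancy, and VDS-F1 mice to dams on a vitamin D sufficient diet. The VDD dams also received calcium gluconate, so that the vitamin and the calcium supplement cannot be told apart. All dams received the sufficient diet from delivery onward, as did all offspring after weaning. The labels do not say which mice were littermates, so each mouse was treated as independent. A liver weight is on record in the study's supplement for VDD4, VDD5, VDD6 and VDS3 through VDS6 (the recorded set, 7 mice), and there is none for VDD1, VDD2, VDD3, VDS1 and VDS2 (the unrecorded set, 5 mice). Results are also given within these sets, and whether they were handled apart is not stated.

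A lipid droplet is a core of triglyceride and cholesterol ester under a single layer of phospholipid that carries proteins. Perilipins (the Plin genes) coat the surface and control the access of lipases. CIDE proteins gather where droplets touch and let lipid pass from the smaller to the larger droplet. Adipose triglyceride lipase, the product of Pnpla2, starts the breakdown of triglyceride and is inhibited by G0s2. In hepatocytes droplets are a passing store between the uptake or synthesis of fatty acids and their oxidation or secretion, and droplet proteins are known to increase in fatty liver. A bulk library cannot tell fewer cells of a type from less RNA per cell.

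Each library had between 14275793 and 20815066 fragments counted on genes. The filter was a mean count of 12 and left 12453 genes, of which 5 (0.0402%) were called DEGs between the diets. The 8 hepatocyte markers, among them Alb and Apoa1, summed to between 83493 and 111189 CPM (counts scaled to a common library size, TMM-normalized), and none of them passed an unadjusted p of 0.05 in edgeR's quasi-likelihood test. Of 10 white adipocyte markers, Lep and Retn had 0 counts in all 12 livers, Adipoq at most 1, Adig at most 3 and Plin1 at most 5. The others reached more, up to 130 counts for Fabp4, 149 for Cfd, 264 for Lipe, 63840 for Pck1 and 92915 for Car3, of which Pck1 and Car3 are known to be abundant in hepatocytes too.

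The starts of 4 of the genes are shown first, of Cidec, Plin4 and Pnpla3 for the results below and of Plin2 for a motif. Cidec lies on the minus strand of chromosome 6 (113424634 to 113435760, GRCm38) and has 4 annotated transcripts, and the RefSeq table of GRCm38.p6 gives a pair of starts for it. The study also measured Cidec by qRT-PCR on the same RNA samples and reported it as upregulated. The primers are shown because they mark the part of the transcript that was amplified. The forward primer lies in exon 5 (113428137 to 113428156) and the reverse primer in exon 6 (113425565 to 113425584) in GENCODE M21, and they span 196 bases in 3 of the 4 transcripts. The counts used here join all 4 transcripts.

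Cidec forward primer: tgacctgcactgctacaagg
Cidec reverse primer: ttgcagcatcttcagacagg

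The 250 bases before each start are printed for Cidec, Plin4, Plin2 and Pnpla3, 5′ to 3′ on the strand of the gene. Capitals mark the letters AGGTCA read on either strand, the unit of the element bound by PPAR with RXR, the receptors best known for control of perilipin and CIDE genes.

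Cidec, upstream start, chr6:113435761-113436010, minus strand: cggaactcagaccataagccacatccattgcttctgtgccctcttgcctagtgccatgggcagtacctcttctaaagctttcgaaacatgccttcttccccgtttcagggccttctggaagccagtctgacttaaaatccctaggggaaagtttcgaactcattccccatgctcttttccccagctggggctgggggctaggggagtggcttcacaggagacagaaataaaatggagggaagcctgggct
Cidec, downstream start, chr6:113434765-113435014, minus strand: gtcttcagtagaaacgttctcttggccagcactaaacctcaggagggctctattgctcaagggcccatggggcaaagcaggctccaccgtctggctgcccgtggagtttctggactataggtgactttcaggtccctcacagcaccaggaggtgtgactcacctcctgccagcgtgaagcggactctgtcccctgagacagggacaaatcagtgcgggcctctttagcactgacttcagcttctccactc
Plin4, chr17:56109783-56110032, minus strand: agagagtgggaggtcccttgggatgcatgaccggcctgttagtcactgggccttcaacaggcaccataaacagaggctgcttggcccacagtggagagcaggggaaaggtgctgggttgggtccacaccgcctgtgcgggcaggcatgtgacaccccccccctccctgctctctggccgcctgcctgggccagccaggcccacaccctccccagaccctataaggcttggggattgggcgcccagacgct
Plin2, chr4:86670060-86670309, minus strand: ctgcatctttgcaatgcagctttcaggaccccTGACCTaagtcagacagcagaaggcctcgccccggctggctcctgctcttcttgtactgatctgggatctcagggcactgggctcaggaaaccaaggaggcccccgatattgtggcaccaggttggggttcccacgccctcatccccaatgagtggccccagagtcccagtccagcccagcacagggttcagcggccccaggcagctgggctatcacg
Pnpla3, chr15:84167566-84167815, plus strand: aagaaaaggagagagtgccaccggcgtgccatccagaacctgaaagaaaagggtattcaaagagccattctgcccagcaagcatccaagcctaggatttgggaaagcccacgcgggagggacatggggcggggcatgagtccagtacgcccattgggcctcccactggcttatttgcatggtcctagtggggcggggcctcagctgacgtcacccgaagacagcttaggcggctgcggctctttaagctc

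In windows from 250 bases before to 50 after the start, AGGTCA was present in 3 of 11 promoters, which belonged to 2 of 9 genes, Plin2 and Plin5. It was present in 16.3% of 32851 promoters in the whole table. The exact direct repeat with 1 base between, AGGTCANAGGTCA on either strand, was in 0 of the 11 and in 0.0396% of all promoters. These are matches of letters and show no binding. Cidea was not included in this search.

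Of the 10 genes, 9 passed the filter and Cidea did not. A DEG had an adjusted p under 0.05 and a log2-fold change beyond 1 in size. By the quasi-likelihood test of edgeR, adjusted by the Benjamini-Hochberg method, 0 of the 9 were DEGs higher in VDD-F1 livers, beside 0.0161% of all genes tested, and 0 were lower, beside 0.0241%. At an unadjusted p under 0.05, 3 of the 9 were higher in VDD-F1 livers (Cidec, Plin4 and Plin3), against a background of 9.55%, and 0 were lower, against 6.29%. DESeq2's Wald test called 2 of the 9 (Cidec and Plin4), where it called 2.03% of all genes, and limma-voom called 0. The median log2-fold change of the 9 genes was 0.13, and that of all genes tested was 0.00.

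**Figure D1:**
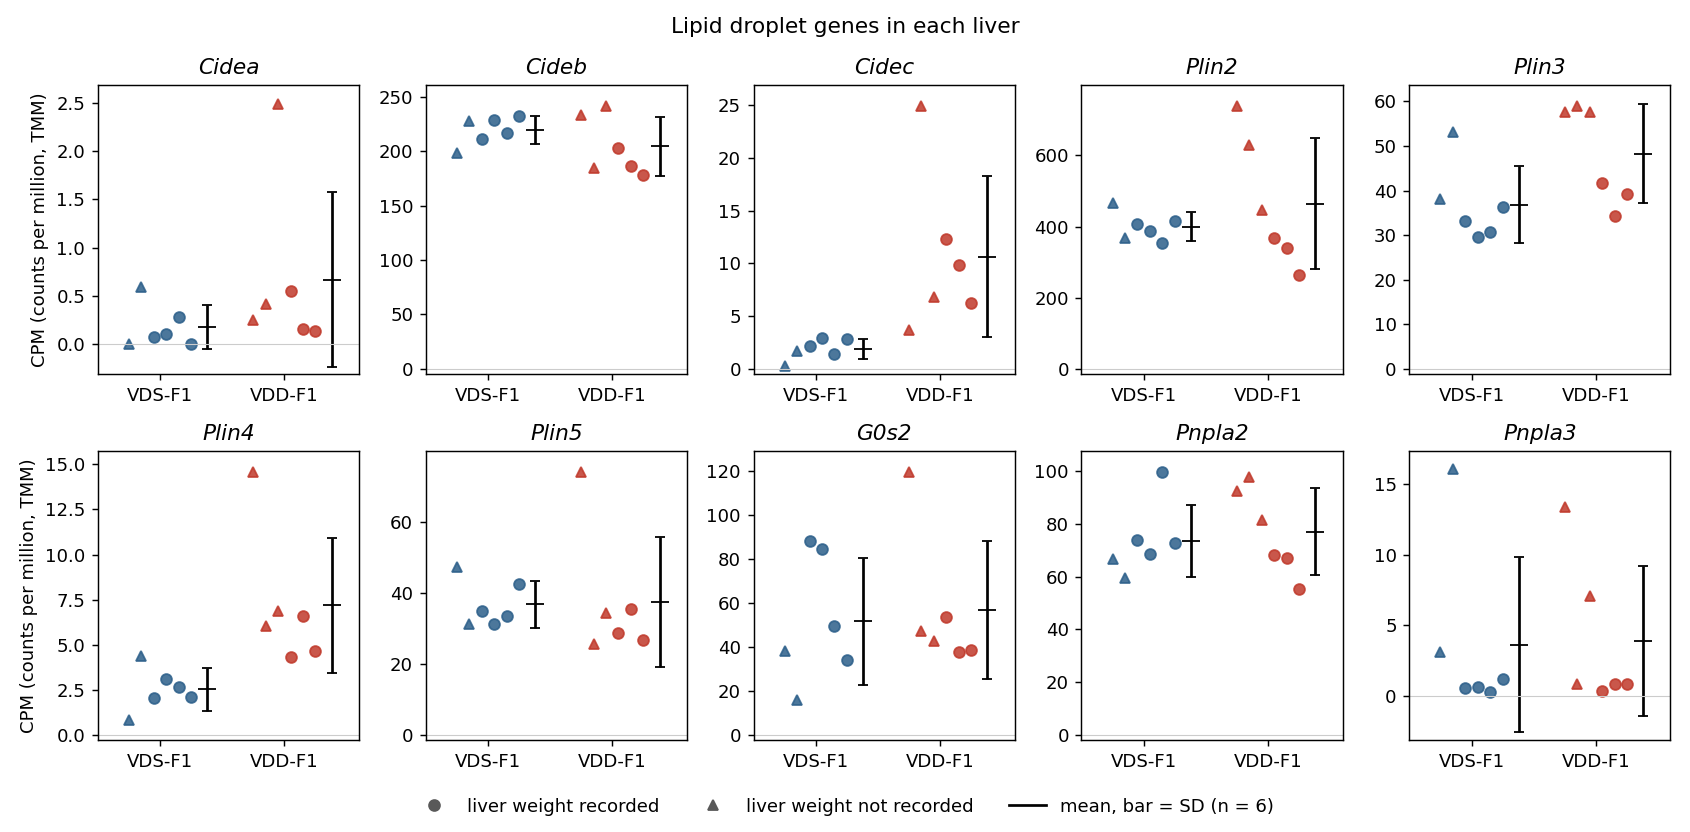
CPM (linear axis) of the 10 lipid droplet genes in each liver, VDS-F1 in blue and VDD-F1 in red, with circles for the recorded set of 7 mice and triangles for the unrecorded set of 5, and the mean with its SD (n = 6) as a bar. The groups of Cidec do not overlap, VDD1 stands at the top for Plin2, Plin4, Plin5 and G0s2, and Pnpla3 is above 2 CPM only in triangles.

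CIDE genes are described first. Cidec, also called Fsp27, promotes the growth of large droplets in white fat and is normally low in liver. In VDS-F1 livers its lowest, median and highest levels were 0.296 (VDS1), 1.92 and 2.91 CPM. In VDD-F1 livers they were 3.66 (VDD1), 8.33 and 24.9 CPM (VDD2). Every VDD-F1 liver was above every VDS-F1 liver, as for 0.61% of all genes tested (0.57% had every VDD-F1 liver below, and no member did). The means were 10.6 ± 7.63 and 1.87 ± 0.973 CPM (SD, n = 6 each), a 5.69-fold difference. The log2-fold change was 2.52 (SE 0.49, 95% interval 1.42 to 3.61), and its adjusted p of 0.0640 in the edgeR test missed the threshold. DESeq2's Wald test gave an adjusted p of 0.00128. Without VDD2, the highest liver, the log2-fold change was 2.06 (adjusted p = 0.0895 from edgeR). Cidec became a DEG in edgeR without VDD1 (adjusted p = 0.0104) or without VDD3 (adjusted p = 0.0366). The number of DEGs over all genes, 5 with every mouse kept, was then 260 and 93. Within the recorded set the log2-fold change was 2.02 (adjusted p = 0.00101 from edgeR, where 4.3% of all genes were DEGs). Within the unrecorded set it was 3.60 (unadjusted p = 0.0124 and adjusted p = 0.999 from edgeR, where 0 genes were DEGs and 3.79% had an unadjusted p under 0.05).

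Markers of other cells moved between the same livers. All 7 markers of lipid-associated macrophages, among them Gpnmb, Trem2 and Spp1, were higher in VDD-F1 livers at an unadjusted p under 0.05 in edgeR, and 0 were DEGs. Gpnmb, Trem2 and Mmp12 reached the filter only through the VDD-F1 livers, so the other 4 (Spp1, Cd9, Lpl and Cd63) are those to set beside 9.55% of all genes tested. The summed level of all 7 was 44.4 to 78.4 CPM in VDS-F1 livers and 45.1 to 332 CPM in VDD-F1 livers, and that of the 4 was 43.9 to 76.7 and 44.2 to 261 CPM. Both sums were highest in VDD2, which also had the highest Cidec. In VDD1 and VDD3 the sum of the 4 was 44.2 and 57.5 CPM, inside the range of VDS-F1 livers, where Cidec at 3.66 and 6.78 CPM was above that range. Of 7 stellate cell markers 3 were higher, beside the same 9.55%. The summed level of all 7 was 290 to 446 CPM in VDS-F1 and 311 to 887 CPM in VDD-F1 livers. The collagen gene Col1a1 was at 7.15 to 29.1 CPM in VDS-F1 and 7.51 to 170 CPM in VDD-F1 livers. For Reln, Rgs5 and Lrat of the same list, VDD-F1 livers lay both above and below the VDS-F1 range. Of 5 cholangiocyte markers 3 were higher, beside the same 9.55%. The sums of all 5 were 27.6 to 51.0 CPM in VDS-F1 and 23.9 to 115 CPM in VDD-F1 livers, the highest in VDD2. Spp1 is in this list too and gave 66.5 of the 115 CPM in VDD2, and without it the sums were 14.8 to 26.6 and 14.6 to 48.1 CPM. Of 6 Kupffer cell markers 2 were lower, beside 6.29% of all genes tested, with sums of 122 to 241 and 79.8 to 231 CPM. Of 5 endothelial markers 1 was higher and 2 were lower, beside 9.55% and 6.29%, with sums of 172 to 233 and 177 to 210 CPM. Their part in the level of Cidec was not tested. Plin1, the perilipin of adipocytes, had 5 counts in VDD3, 1 in VDD6 and 0 in the other 10 livers.

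Cideb, which is highly expressed in hepatocytes and takes part in the lipidation of very low density lipoprotein, differed little. It lies on chromosome 14 (55754050 to 55758458). Its lowest, median and highest levels were 198.9, 222 and 232 CPM in VDS-F1 livers and 178, 195 and 242 CPM in VDD-F1 livers. The groups overlapped, with VDD1 and VDD3 above all VDS-F1 livers and VDD2, VDD5 and VDD6 below them all. The log2-fold change was -0.10 (95% interval -0.31 to 0.11, adjusted p = 0.638 from edgeR). Cideb overlaps Nop9 on the other strand, and the count that ignores the strand was 317 to 585 fragments per liver where the reverse-strand count was 2953 to 4400, since STAR leaves out fragments that fit both genes.

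Cidea, which is known from brown fat and is nearly silent in lean liver, had 4, 8, 33, 8, 3 and 3 counts in VDD1 to VDD6. In VDS1 to VDS6 it had 0, 10, 1, 2, 4 and 0 counts. A count of 0 allows up to 0.148 CPM in VDS1 and 0.215 CPM in VDS6 (3 counts, counting error only). VDD3 was highest at 2.49 CPM, and the other livers were at 0 to 0.590 CPM (VDS2). The mean levels were 0.667 and 0.173 CPM (exact permutation test over all splits of the mice, two-sided, p = 0.160), and without VDD3 the VDD-F1 mean was 0.303 CPM. Of the other 4 brown fat markers, Ucp1 and Cox8b had at most 2 counts in any liver, and Ppargc1a and Elovl3, which hepatocytes are known to express, had up to 607 and 7319.

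Perilipins were measured with Plin2 as the most abundant, the coat protein that is made in most cells and stabilised by lipid. Plin4, a long perilipin that coats young droplets in fat and muscle, had the largest log2-fold change after Cidec among the 9 members that passed the filter. It lies on the minus strand of chromosome 17 (56100591 to 56109803), close to Plin5. Its lowest, median and highest levels were 0.839 (VDS1), 2.36 and 4.37 CPM (VDS2) in VDS-F1 livers. In VDD-F1 livers they were 4.33 (VDD4), 6.31 and 14.6 CPM (VDD1). Of the 6 VDD-F1 livers 5 were above every VDS-F1 liver, and VDD4 fell just under VDS2. The means were 7.18 ± 3.77 and 2.52 ± 1.18 CPM (SD, n = 6 each), a 2.85-fold difference with a log2-fold change of 1.51 (SE 0.36, 95% interval 0.70 to 2.31). The adjusted p was 0.0905 in edgeR's quasi-likelihood test and 0.00391 in DESeq2's Wald test. With each mouse left out in turn the log2-fold change was 1.18 (without VDD1) to 1.74 and was called by edgeR in none of the 12 fits. It was 1.06 in the recorded set (adjusted p = 0.0163 from edgeR) and 1.83 in the unrecorded set (adjusted p = 0.999 from edgeR).

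Plin3, a perilipin that moves between the cytosol and new droplets, had its lowest, median and highest levels at 29.5, 34.8 and 53.2 CPM (VDS2) in VDS-F1 livers. In VDD-F1 livers they were 34.3, 49.6 and 59.0 CPM. VDD1, VDD2 and VDD3 were above every VDS-F1 liver, and VDD4 to VDD6 overlapped them. The log2-fold change was 0.39 (95% interval 0.01 to 0.77, unadjusted p = 0.0367, adjusted p = 0.282 from edgeR). The levels of Plin3 are taken up again with the sets of mice.

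Plin2 lies on chromosome 4 (86648386 to 86670060). It had its lowest, median and highest levels at 355, 397 and 466 CPM in VDS-F1 livers. The VDD-F1 livers spread more widely, at 265 (VDD6), 408 and 739 CPM (VDD1). VDD1 and VDD2 were above all VDS-F1 livers and VDD5 and VDD6 below them all, so the groups overlapped on both sides. The log2-fold change was 0.22 (95% interval -0.25 to 0.68, adjusted p = 0.652 from edgeR), and it was 0.037 without VDD1 and 0.11 without VDD2.

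Plin5, which ties droplets to mitochondria in tissues that oxidise fat, had 31.2, 34.2 and 47.3 CPM as its lowest, median and highest levels in VDS-F1 livers. The VDD-F1 livers had 25.6, 31.5 and 74.0 CPM, the last in VDD1. VDD1 lay above the VDS-F1 range, and VDD2, VDD4 and VDD6 lay below it. The log2-fold change of 0.02 (95% interval -0.50 to 0.55, adjusted p = 0.978 from edgeR) turned to -0.29 without VDD1, and just below 0 without VDS2, VDS4 or VDS5.

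**Figure D2:**
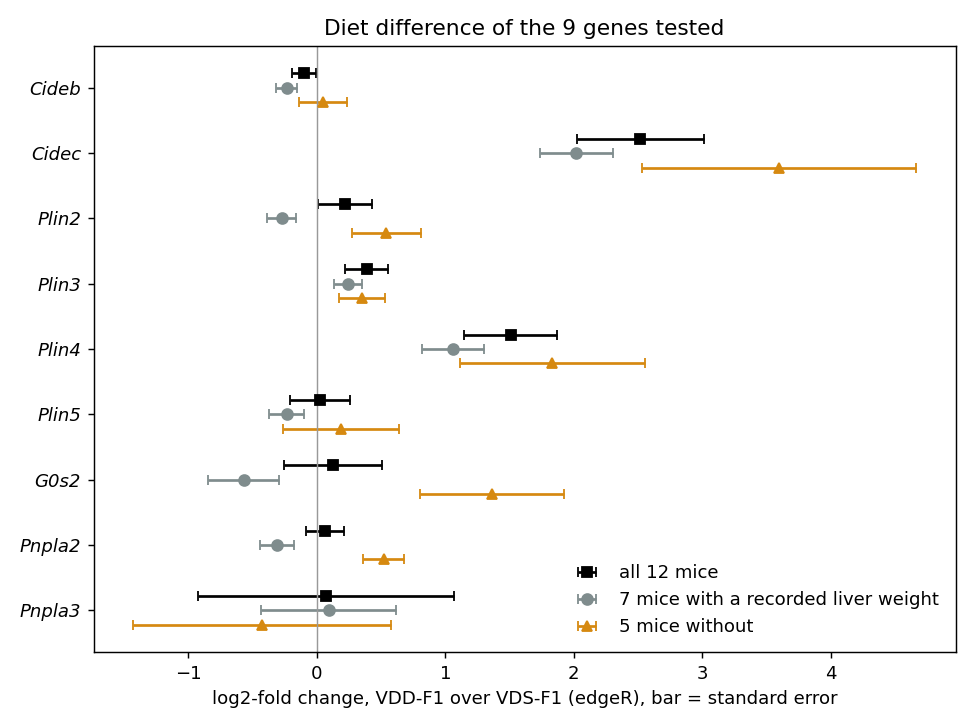
Log2-fold change (VDD-F1 over VDS-F1, edgeR) of the 9 lipid droplet genes that passed the filter, with its standard error as a bar, in all 12 mice, in the recorded set of 7 and in the unrecorded set of 5. Cidec at 2.52 and Plin4 at 1.51 lie right of 0 in all mice and in both sets, as does Plin3 at 0.39, and the estimates of the other 6 genes lie on opposite sides of 0 in the sets.

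The lipolysis genes did not differ by diet beyond their spread. Pnpla2, the lipase of the first step of triglyceride breakdown, had its lowest, median and highest levels at 59.7, 70.6 and 99.7 CPM (VDS5) in VDS-F1 livers. They were 55.2, 74.8 and 97.8 CPM in VDD-F1 livers. The groups overlapped, with VDD6 below all VDS-F1 livers. Its log2-fold change was 0.07 (95% interval -0.26 to 0.40, adjusted p = 0.870 from edgeR), and it was -0.014 without VDD2. G0s2, the small inhibitor of that lipase, had 16.0 (VDS2), 44.0 and 88.4 CPM in VDS-F1 livers. In VDD-F1 livers it had 37.9, 45.1 and 119.7 CPM, where VDD1 was far above the other 5 (37.9 to 53.7 CPM). Its log2-fold change was 0.13 (95% interval -0.72 to 0.98, adjusted p = 0.909 from edgeR), and it was -0.23 without VDD1 and -0.058 without VDS2. Abhd5, which activates the lipase, had 27.0 ± 3.35 CPM in VDD-F1 and 26.8 ± 4.59 CPM in VDS-F1 livers (SD, n = 6 each), with a log2-fold change of 0.01. Hilpda, another inhibitor of the lipase, had 1.15 ± 0.680 and 1.28 ± 0.173 CPM (SD, n = 6 each).

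Pnpla3, a droplet protein related to the lipase and best known for its link to fatty liver in people, varied more than any other member that passed the filter. It lies on chromosome 15 (84167837 to 84187236). In VDS1 to VDS6 its levels were 3.11, 16.0, 0.550, 0.624, 0.278 and 1.22 CPM. In VDD1 to VDD6 they were 13.4, 0.887, 7.08, 0.343, 0.841 and 0.886 CPM. The highest liver was 39.0-fold above the lowest in VDD-F1 and 57.8-fold in VDS-F1 mice. The lowest livers had only 5 counts (VDD4) and 4 counts (VDS5), so these folds are imprecise. No difference between the diets could be seen against this spread (log2-fold change 0.07, 95% interval -2.14 to 2.29, adjusted p = 0.986 from edgeR), and the log2-fold change was -0.91 without VDD1 and 1.70 without VDS2.

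**Figure D3:**
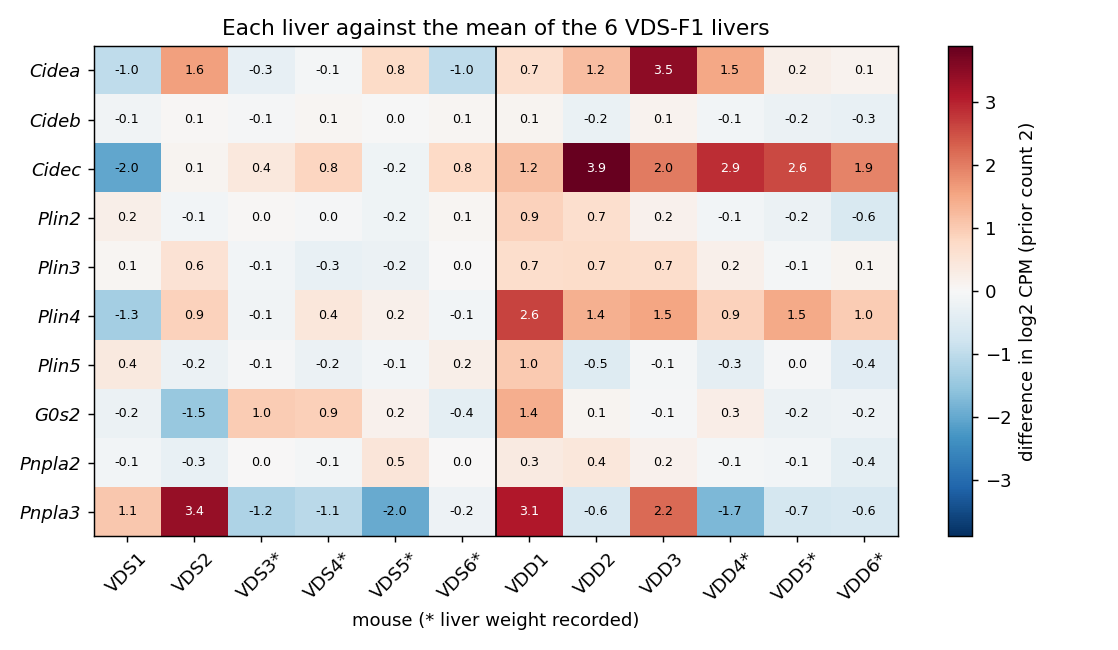
Log2 CPM of each lipid droplet gene in each mouse minus the mean of the 6 VDS-F1 mice, with red above and blue below that mean and an asterisk on mice of the recorded set. VDD1 and VDD2 carry the highest cells of different rows, and the row of Pnpla3 is red in VDD1, VDD3, VDS1 and VDS2.

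The VDD-F1 livers were not raised in the same members. VDD1 was the highest of all 12 livers for Plin2, Plin4, Plin5 and G0s2, and it had the lowest Cidec of the VDD-F1 livers. VDD2 had the highest Cidec, with 631 CPM of Plin2 and the lowest Plin5 of all livers, 25.6 CPM. VDD6 had the lowest Plin2 and Pnpla2 of all livers (265 and 55.2 CPM), with Cidec at 6.25 CPM.

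Between the sets, the estimates for Cideb, Plin2, Plin5, G0s2, Pnpla2 and Pnpla3 had opposite signs. For G0s2 the log2-fold change by diet was -0.57 in the recorded set and 1.36 in the unrecorded set. For Plin2 it was -0.27 and 0.54, and for Pnpla2 -0.31 and 0.52. The test of the interaction of diet and set gave 1.93 for G0s2 (SE 0.66, unadjusted p = 0.0116), 0.81 for Plin2 (SE 0.27, unadjusted p = 0.00926) and 0.83 for Pnpla2 (SE 0.22, unadjusted p = 0.00210), all from edgeR's quasi-likelihood test. These 3 of 9 members stand beside 9.01% of all genes tested. After Benjamini-Hochberg adjustment 0 of the 9 passed, with adjusted p from 0.227 for Pnpla2 upward, where 0.0883% of all genes did. For Cidec the interaction was 1.58 (adjusted p = 0.718 from edgeR), and it was 0.38 without VDD2 and 3.27 without VDS2.

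With diet in the model, 1 of the 8 members that reached the filter in each set alone, Plin3, differed between the sets at an adjusted p under 0.05, beside 2.46% of all genes tested. Plin3 was at 53.1 ± 8.73 CPM (SD, n = 5) in the unrecorded and at 35.0 ± 4.40 CPM (SD, n = 7) in the recorded set, a log2 difference of 0.55 (SE 0.10, adjusted p = 0.00860 from the edgeR test). With each mouse left out in turn the difference was 0.48 to 0.64 and stayed past the threshold in all 12 fits. Pnpla3 was at 8.10 ± 6.50 CPM (SD, n = 5) in the unrecorded and at 0.677 ± 0.329 CPM (SD, n = 7) in the recorded set. Its values in the 5 mice were 16.0 in VDS2, 13.4 in VDD1, 7.08 in VDD3, 3.11 in VDS1 and 0.887 CPM in VDD2, so VDD2 lay inside the range of the other set. In the recorded set its mean count was 11.6, just under the filter, which it passed through the unrecorded set, so its test is taken from the looser filter (a total of 12 counts), which either set passes alone. There the log2 difference was 3.56 (adjusted p = 0.00356 from edgeR). Plin2 had a log2 difference of 0.53 (SE 0.17), which did not pass after adjustment (unadjusted p = 0.00817 from edgeR). The sets hold both diets, and nothing in the labels names what else they differ in.

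Among 52 tested genes of 56 listed for lipid synthesis, storage, lipolysis and secretion, 4 had an adjusted p under 0.05 between the sets (7.69%, beside 2.46% of all genes tested). They are named here after their values were seen, and 1 of them, Pnpla5, was tested only because of its level in the unrecorded set. Pnpla5, the gene next in family to Pnpla3 and its neighbour on chromosome 15 (84112356 to 84123175), had 7.26 CPM in VDS2, 4.10 in VDD1, 3.31 in VDD3, 1.33 in VDS1 and 0.313 in VDD2. It was at most 0.286 CPM in the recorded set, and this order of the 5 mice is that of Pnpla3. It had at most 4 counts per liver in the recorded set, so no fold or p-value is given for it. Gpam, which commits fatty acids to glycerolipid synthesis in mitochondria, had 1120 CPM in VDS2, 800 in VDD3, 664 in VDD1, 263 in VDS1 and 233 in VDD2, beside 255 ± 51.1 CPM (SD, n = 7) in the other set. Its log2 difference was 1.32 (adjusted p = 0.0481 from edgeR). Pnpla7, a lysophospholipase, had 141 ± 16.2 and 112 ± 6.36 CPM (adjusted p = 0.0488 from edgeR). Gpat4, a glycerol phosphate acyltransferase of the endoplasmic reticulum, was lower in the unrecorded set, at 153 ± 20.1 CPM (SD, n = 5) against 226 ± 25.7 CPM (SD, n = 7, adjusted p = 0.00602 from edgeR).

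**Figure D4:**
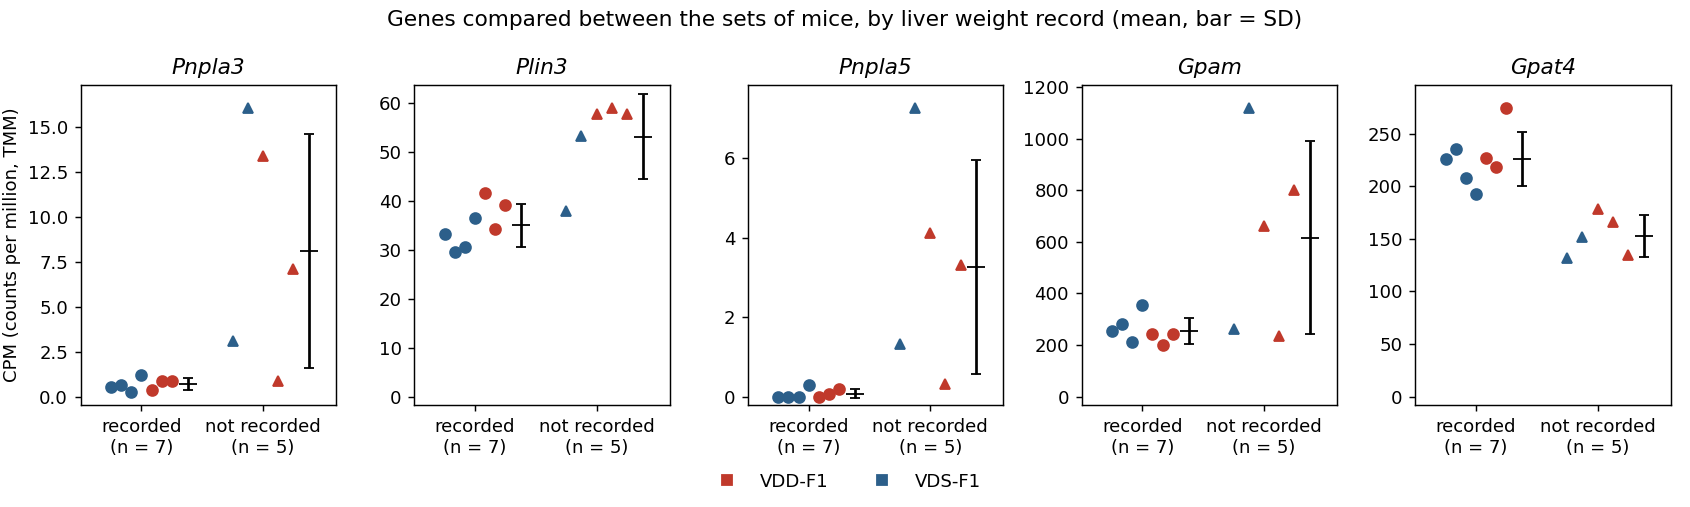
CPM (linear axes) of Pnpla3, Plin3, Pnpla5, Gpam and Gpat4 in the recorded and the unrecorded set of mice, VDS-F1 in blue and VDD-F1 in red, with the mean and its SD as a bar. Pnpla3, Pnpla5 and Gpam are highest in VDS2, VDD1 and VDD3 of the unrecorded set, and Gpat4 is lower in all 5 mice of that set than in any of the other 7.

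In the comparison of the diets the same 52 genes gave 0 DEGs in edgeR and limma-voom and 1 (Gpat3) in DESeq2. At an unadjusted p under 0.05, 3 were higher and 2 lower (9.62%, beside 15.8% of all genes tested), and their median log2-fold change was -0.06. Hsd17b13, a droplet enzyme of hepatocytes, had 289 to 305 CPM in 5 VDS-F1 livers and 275 CPM in VDS6. It had 323 to 463 CPM in VDD-F1 livers, which did not overlap with these, and its means were 402 ± 46.5 and 293 ± 10.5 CPM (SD, n = 6 each). The log2-fold change was 0.45 (SE 0.09, adjusted p = 0.0640 from edgeR, 0.000120 from DESeq2), which is under the fold a DEG requires. Gpat3, a glycerol phosphate acyltransferase, had 1.42, 2.28 and 4.44 CPM as its lowest, median and highest levels in VDS-F1 livers and 3.31, 7.13 and 14.6 CPM in VDD-F1 livers. VDD2 was again the highest, and VDD1 and VDD3 lay within the VDS-F1 range. Its log2-fold change was 1.62 (SE 0.35, adjusted p = 0.0812 from edgeR, 0.00107 from DESeq2), and it became a DEG in edgeR without VDD1 (adjusted p = 0.0185) or VDD3 (adjusted p = 0.0344).

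Tm6sf2, which acts in the loading of lipoproteins with lipid, had a log2-fold change of 0.35 (adjusted p = 0.222), and Lipa, the lysosomal lipase, of 0.22 (adjusted p = 0.370), both from edgeR. Dgat2, the enzyme of the last step of triglyceride synthesis, was at 372 ± 103 CPM in VDD-F1 and 488 ± 39.0 CPM in VDS-F1 livers (SD, n = 6 each). Its log2-fold change was -0.39 (adjusted p = 0.235 from edgeR), with VDD1 at 469 and VDD3 at 533 CPM among the VDS-F1 livers and the other 4 VDD-F1 livers below all of them. Within the recorded set it was -0.62 (adjusted p = 0.00123 from edgeR) and within the unrecorded set -0.20 (adjusted p = 0.999 from edgeR). Faf2, which takes part in the removal of proteins from droplets, had a log2-fold change of -0.20 (adjusted p = 0.199 from edgeR).

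Of 14 regulators of droplet genes 0 were DEGs in edgeR, DESeq2 or limma-voom. At an unadjusted p under 0.05 in edgeR 1 was higher and 3 were lower, 28.6% of the list beside 15.8% of all genes tested (9.55% higher and 6.29% lower), and the median log2-fold change was -0.19. Pparg, the nuclear receptor that drives Cidec and Plin4 in fat cells, had 4.05, 9.29 and 11.7 CPM as its lowest, median and highest levels in VDS-F1 livers and 9.79, 12.6 and 16.5 CPM in VDD-F1 livers. These overlapped, and its log2-fold change was 0.59 (unadjusted p = 0.0177, adjusted p = 0.220 from edgeR). Over 23 alternatives of processing and of mice used, that of Pparg was 0.29 to 1.23, with an adjusted p under 0.05 in 0. Mlxipl, the carbohydrate sensor also called ChREBP, had 114 ± 32.7 CPM in VDD-F1 and 170 ± 28.2 CPM in VDS-F1 livers (SD, n = 6 each). Its log2-fold change was -0.57, with an adjusted p of 0.145 from edgeR and 0.0477 from DESeq2. Over the 23 alternatives that of Mlxipl was -0.70 to -0.45, with an adjusted p under 0.05 in 3, DESeq2 among them. Hnf4a, a factor of hepatocyte identity, had a log2-fold change of -0.29 (adjusted p = 0.301 from edgeR). Over the 23 alternatives that of Hnf4a was -0.46 to 0.071, with an adjusted p under 0.05 in 1. Med1, a subunit of the Mediator complex, had a log2-fold change of -0.21 (adjusted p = 0.266 from edgeR).

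Levels of different genes were compared per length, as FPKM (CPM divided by the length of all exons of the gene in kilobases). In VDS-F1 livers the order of mean levels was Cideb (147 FPKM), Plin2 (114), G0s2 (59.5), Pnpla2 (24.4), Plin5 (17.6), Plin3 (9.72), Pnpla3 (2.35), Cidec (1.01), Plin4 (0.436) and Cidea (0.156). In VDD-F1 livers Cidec at 5.74 FPKM stood before Pnpla3 at 2.52 FPKM, and the other 8 genes kept their places. Cideb and Plin2 could not be ordered in VDD-F1 livers, at 137 ± 18.2 and 132 ± 52.2 FPKM (SD, n = 6 each), where Cideb was above Plin2 in 4 of 6 mice. With the longest transcript as the length Plin2 came before Cideb in both groups. Cidec and Pnpla3 were also not separated, with Pnpla3 above Cidec in 2 of 6 VDS-F1 mice and Cidec above Pnpla3 in 4 of 6 VDD-F1 mice. Each other gene was above the next in at least 5 of 6 mice of both groups, except Pnpla3 over Plin4 in VDD-F1 livers, in 2 of 6.

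**Figure D5:**
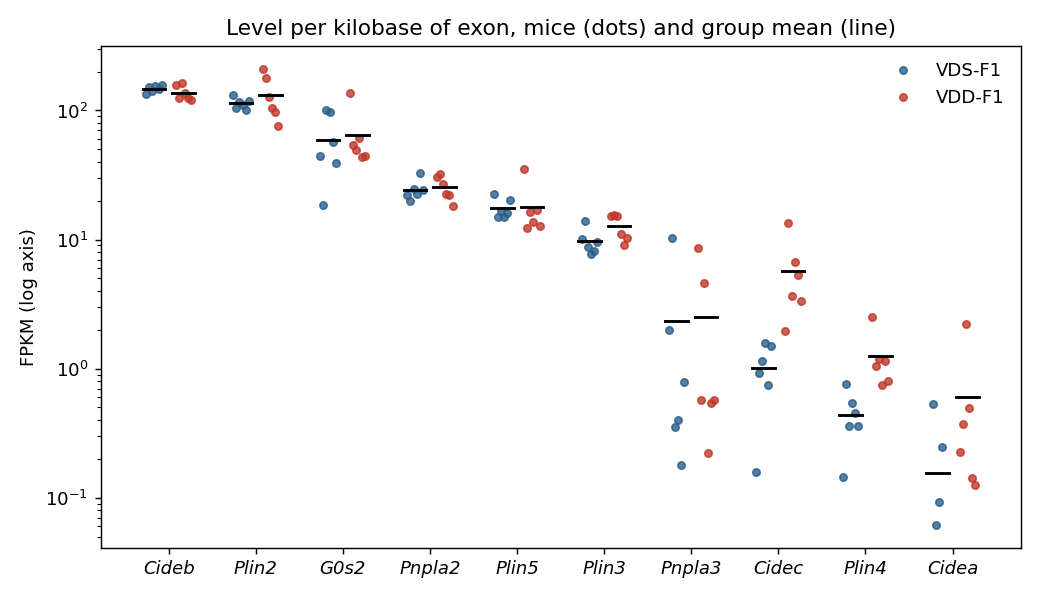
FPKM (log axis) of the 10 lipid droplet genes in each liver, VDS-F1 in blue and VDD-F1 in red, in the order of the VDS-F1 means, with a line at each group mean. Levels run from Cideb and Plin2 at 75.4 FPKM or more to Cidea, whose 0 values in VDS1 and VDS6 are not drawn, and the colours part at Cidec and, with VDD4 as an exception, at Plin4.

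Of all genes tested, the 5 whose log2 CPM followed that of Cidec most closely over the 12 livers were Uhrf1, Hist1h3c, Cdc20, Bex3 and Dgkz. Uhrf1 maintains DNA methylation after replication, Hist1h3c is a histone gene of dividing cells and Cdc20 an activator of anaphase, while Dgkz is a diacylglycerol kinase. Pearson's r with Cidec was 0.951 for Uhrf1, 0.947 for Hist1h3c, 0.944 for Cdc20, 0.939 for Bex3 and 0.934 for Dgkz, and Spearman's rho was 0.846 to 0.930. Without VDS1 and VDD2, the livers farthest from the median of Cidec, r was 0.856, 0.927, 0.858, 0.819 and 0.844. The 12 livers come from both diets, and all 5 genes had higher means in VDD-F1 livers, as Cidec had. Each r therefore includes the difference between the diets. No r within a diet was computed, and these values are a description. Uhrf1, Cdc20 and Bex3 had mean counts of 7.83, 8.83 and 6.83 in VDS-F1 livers and passed the filter only through the VDD-F1 livers, where Cidec was also high.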

How the data were processed

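Liver RNA was sequenced from 12 mice after removal of ribosomal RNA, with 1 library per mouse. The authors trimmed the reads, aligned them to mm10 with STAR and deposited raw counts per gene (GENCODE M15, GRCm38) without normalization, in which fragments that fit several places or several genes are left out. The reverse-strand count was used, since it was the larger of the strands in all 12 libraries. Between 37.4% and 50.3% of the fragments of a library were in no gene row. Symbols and positions came from GENCODE M21, which matched 52489 of 52636 IDs and all 10 members, and promoters from RefSeq (GRCm38.p6).

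Genes whose mean count reached 12 were tested with edgeR 4.0.16 in R 4.3.3 (TMM, quasi-likelihood test in the legacy form, Benjamini-Hochberg adjustment over all genes tested), and a DEG needed an adjusted p under 0.05 together with a log2-fold change beyond 1 in size. DESeq2 1.42.0, the tool of the study's methods, limma-voom 3.58.1, other scalings, strands and filters, the sets of mice and each mouse left out were alternatives. Log2 CPM used a prior count of 2. Intervals of log2-fold changes come from the standard error and are for the difference between the group means. They do not cover the range of single mice. Scripts were tested on simulated data. Figures were drawn with matplotlib 3.10.9 in Python 3.11.15.

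The members and lists were chosen with earlier results of these data known. Genes named beside the members were the 5 with the smallest p in each direction of the lists, 6 genes named whatever their values, and the 5 most like Cidec. Pnpla5, Gpam, Pnpla7 and Gpat4 were named after their values were seen.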

Additional observations from a re-analysis of the deposited data

Results flagged for a closer look

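In 7 of 20 groups of 6 livers 1 mouse lay far from the others in linear CPM. This was by Dixon's ratio of its gap to the range of the group, at the 95% critical value. That critical value holds for normally distributed values, and all 7 flags were on the high side of linear CPM. No rate by chance is therefore given, and log2 CPM was not tried. VDD1 was at 14.6 CPM for Plin4 (the other VDD-F1 livers 4.33 to 6.85), at 74.0 CPM for Plin5 (25.6 to 35.5) and at 119.7 CPM for G0s2 (37.9 to 53.7). VDS2 was at 53.2 CPM for Plin3 (the other VDS-F1 livers from 29.5 CPM, the next highest VDS1) and at 16.0 CPM for Pnpla3 (0.278 to 3.11). VDD3 was at 2.49 CPM for Cidea (0.140 to 0.549), and VDS5 at 99.7 CPM for Pnpla2 (59.7 to 74.0).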

How the results depend on the processing

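The number of DEGs over all genes, 5 in edgeR, was 253 with DESeq2's Wald test, 13 with limma-voom, 70 with no filter, 21 with the set of mice as a covariate, 536 in the recorded and 0 in the unrecorded set, 17 with a replicate block and 0 to 260 with 1 mouse left out, and the cause was not tested. Of the members, 2 were called by DESeq2 and in the recorded set, 1 with no filter and 1 with the replicate block (Cidec, adjusted p = 0.0472 from edgeR), and 0 to 1 with 1 mouse left out. Of the storage and lipolysis genes 1 was called by DESeq2, 1 with no filter, 3 in the recorded set and 0 to 1 with 1 mouse left out. Cidea, under the filter, had a log2-fold change of 1.85 in edgeR with a total count of at least 12 (unadjusted p = 0.0599, adjusted p = 0.371) and of 1.85 with no filter (unadjusted p = 0.0479, adjusted p = 0.382).

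Directions by diet turned as follows. In the recorded set the log2-fold change was -0.27 for Plin2, -0.23 for Plin5, -0.57 for G0s2, -0.31 for Pnpla2 and -0.014 for Abhd5. In the unrecorded set it was 0.046 for Cideb, -0.43 for Pnpla3, 0.066 for Hilpda and 0.071 for Hnf4a. With the set as a covariate it was -0.061 for Plin5 and -0.20 for Pnpla3. For Plin5 it was -0.071 with limma-voom and -0.062 with the replicate block. Abhd5, at 0.01, was at -0.0033 with a total count of at least 12 and -0.0051 with no filter. With 1 mouse left out the ranges were -0.29 to 0.11 for Plin5, -0.23 to 0.35 for G0s2, -0.014 to 0.17 for Pnpla2, -0.91 to 1.70 for Pnpla3, -0.067 to 0.061 for Abhd5 and -0.41 to 0.092 for Hilpda. The log2 difference between the sets ranged from -1.03 to 0.13 for Cidec and from -0.59 to 0.26 for G0s2, and the interaction from -0.11 to 0.37 for Plin3, -0.16 to 0.75 for Plin5 and -1.38 to 1.1 for Pnpla3. Leaving mice out of the last 2 comparisons was chosen after the data had been seen. Plin3 passed the threshold between the sets in all 13 alternatives run.

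Same-numbered mice had correlations of -0.08 to 0.10. Such values cannot show whether the numbers pair the mice by litter or handling, and the labels do not say. With a mean count of 6.33, the fold change of Cidea is imprecise at this depth (SE 0.91 and 0.88 in those fits).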
